A study of Mus musculus with 12 samples.

Results

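The 40 genes described here are cell cycle and DNA replication genes, chosen by name: G1 cyclins, their kinases and inhibitors, the Mcm helicase subunits, proteins of the replication fork, enzymes of nucleotide supply, mitotic cyclins and kinases, and genes of the spindle, the checkpoints and the chromosome. Each gene is represented by its brightest probe set among those that the platform's annotation gives a single symbol, brightness being the mean log2 intensity over all arrays. Of the 40 genes 37 had such a probe set, out of 8251 genes with one on the array, and 36 lay above the filter on dim probe sets. Mcm6 lay under that filter, with intensities from 1.0 to 2.25 on the 12 arrays. Tyms, Ccnb1 and Bub1b were not analysed here, as no probe set carried their symbol alone.

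Total RNA of thymocytes was hybridised to 12 Affymetrix mouse arrays after 6 days of RTOC, reaggregate thymic organ culture, in which thymocytes are cultured together with thymic stroma. The 3 groups have 4 arrays each. OT1 holds thymocytes with the OT1 T cell receptor, for which the labels name no peptide. HY_low and HY_high hold thymocytes with the HY receptor, which recognises the male antigen Smcy, cultured with Smcy peptide at 1e-07 M and 1e-05 M. The labels give no strain, sex, age, transgene promoter or stromal source for any group. Nor do they say whether a group's arrays stem from independent cultures, and p-values here cover only array-to-array spread, which may be technical. HY_high against HY_low compares the doses, but the array titles also carry letters of unknown meaning that differ between these groups, so dose and whatever the letters mark cannot be told apart. HY_low against OT1 and HY_high against OT1 change receptor and peptide together, and they share the OT1 arrays.

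A cell commits to division in G1, when cyclins D and E with Cdk4 and Cdk2 release E2F factors from their inhibitors, and inhibitors such as Cdkn1a, Cdkn1b and Cdkn2c hold these kinases back. E2F factors switch on genes of DNA replication, among them the Mcm helicase that opens the DNA ahead of the fork, while mitotic genes come on later, many of them through a promoter element called CHR together with CCAAT boxes. In the thymus, immature thymocytes divide in bursts before the double-positive stage, and double-positive cells that are being selected are mostly not dividing.

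Promoters were searched for the elements of these classes. RefSeq gave a window from 250 bases before to 50 bases after the start, in build GRCm38.p6, for 36 of the 40 genes. It was searched on both strands for the E2F words TTTCCCGC, TTTCGCGC, TTTGCCGC and TTTGGCGC, for the CHR word TTTGAA and for CCAAT. None of these words contains another, but E2F matches on opposite strands may overlap. An E2F word stood in the windows of 8 of the 36 genes (22.2%), against 2.605% of all 27025 windows of that length. CCAAT stood in 25 (69.4%), against 41.1% of all, and the CHR word in 11 (30.6%), against 20.2% of all. The E2F words stood in 4 of 5 helicase genes with a window (Mcm3, Mcm5, Mcm6 and Mcm7) and in Lig1, Pola1, Cdk2 and Cdk1. The CHR word stood in 4 of 5 mitotic cyclin and kinase genes and in 5 of 9 spindle, checkpoint and chromosome genes, but in 0 of 8 G1 genes. These matches describe letters and not bound sites.

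The 250 bases before the start of 3 genes are shown, 5′ to 3′ on the gene's own strand, because they hold the E2F words without the CHR word, both, and the CHR word without the E2F words. Capitals mark every match to the words above, on either strand. Mcm5, a subunit of the helicase, lies on the plus strand at chr8:75109259-75109508 and has a pair of overlapping E2F words. Cdk1, the kinase that drives mitosis, lies on the minus strand at chr10:69352913-69353162 and has 1 E2F word and 2 CHR words. Top2a, the topoisomerase that untangles chromosomes, lies on the minus strand at chr11:99024190-99024439 and has 2 CHR words and 6 CCAAT words.
Mcm5: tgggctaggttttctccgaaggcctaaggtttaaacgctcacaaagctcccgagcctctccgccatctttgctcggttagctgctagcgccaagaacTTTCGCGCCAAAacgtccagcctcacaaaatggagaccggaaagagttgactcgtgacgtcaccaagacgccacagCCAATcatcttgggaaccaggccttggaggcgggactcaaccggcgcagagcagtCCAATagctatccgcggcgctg
Cdk1: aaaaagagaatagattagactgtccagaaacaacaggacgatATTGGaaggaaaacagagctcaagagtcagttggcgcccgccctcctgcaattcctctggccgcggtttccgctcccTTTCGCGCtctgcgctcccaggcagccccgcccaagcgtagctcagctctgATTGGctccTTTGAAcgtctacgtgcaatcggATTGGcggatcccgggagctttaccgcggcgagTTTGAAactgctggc
Top2a: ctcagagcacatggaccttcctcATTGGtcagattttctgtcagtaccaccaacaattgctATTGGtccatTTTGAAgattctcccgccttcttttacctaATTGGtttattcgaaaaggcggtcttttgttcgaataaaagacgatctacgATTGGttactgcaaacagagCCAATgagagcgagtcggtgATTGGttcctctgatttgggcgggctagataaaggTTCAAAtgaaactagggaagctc

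Most of these genes were measured well above the low end of the arrays. An intensity of 8 is used here as a mark of a clearly measured level, and 22 of the 37 genes lay above it on all 12 arrays, while Cdkn1b, Fen1, Bub1 and Mcm6 lay above it on none. The median intensity of the arrays ran from 3.33 to 3.97, and 15.3% of all values stood at the lowest value of 1. Of 8 measured mature T cell markers 7, 7 and 6 had a group mean above 8 in OT1, HY_low and HY_high, and of 8 double-positive thymocyte markers 4, 4 and 2 did. The thymic epithelial list had 0 of 8, the macrophage or dendritic cell list 0 of 10, the fibroblast list 2 of 8 and the B cell list 2 of 6 in each group, the NK cell list 1, 1 and 2 of 6, and the erythroid list 0, 1 and 0 of 5. Among the double-positive markers Cd8a read 85.4 to 1084 over the 12 arrays and Cd4 2.16 to 9.19, and the recombinase genes Rag1 and Rag2 read 1.98 to 9.8 and 1.0 to 3.24.

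No gene of the 36 tested passed the test for a difference between the groups. In limma, 0 of 36 passed a Benjamini-Hochberg adjusted p of 0.05 in each of the 3 comparisons, and 0 of 36 had an unadjusted p under 0.05. The shares of all 8695 probe sets that passed the adjusted threshold were 0.023% for HY_high against HY_low, 0.023% for HY_low against OT1 and 0.173% for HY_high against OT1, and the unadjusted shares were 2.96%, 2.65% and 4.08%. With the array number as a block in limma, 0 of 36 passed the adjusted threshold again, where 0.345%, 0.092% and 1.36% of all probe sets did. The numbers with an unadjusted p under 0.05 were then 0, 1 (Rrm2) and 3 (Mcm3, Ccnd2 and Rrm2), where the shares of all were 11.1%, 8.37% and 11.7%. In RNA from whole cell populations, fewer dividing cells and less RNA per dividing cell cannot be told apart.

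The differences of the 36 genes lay on both sides of 0 in every comparison. In HY_high against HY_low 15 were higher and 21 lower, with a median log2 difference of -0.09 and a range from -0.68 to 0.79, and the median of all tested probe sets was 0.01. In HY_low against OT1 17 were higher and 19 lower, with a median of -0.04, against 0.01 for all, and a range from -1.04 to 0.87. In HY_high against OT1 15 were higher and 21 lower, with a median of -0.07, against 0.02 for all, and a range from -0.84 to 0.83. Rrm2 in HY_low against OT1 was the single value beyond a 2-fold difference among these. Of all tested probe sets 51.3%, 51.0% and 51.4% were higher in the 3 comparisons, in this order, and 94.8%, 95.6% and 93.4% differed by less than 2-fold.

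How far the arrays bound a difference depended on the number block. A 95% interval within 2-fold in both directions was reached by 1, 2 and 3 of the 36 genes without the block, and by 22, 23 and 20 with it, in the same order of comparisons. Of all tested probe sets 5.54%, 5.59% and 5.58% had such an interval without the block and 32.1%, 34.5% and 32.5% with it. Of those with a mean above 8 the shares were 10.7%, 10.6% and 10.6% without the block and 59.2%, 63.1% and 60.0% with it. For the other genes a 2-fold difference was not excluded by its interval. A median over the 36 genes taken within each number changed sign between numbers. It was 0.10, 0.30, -0.48 and -0.00 for numbers 1 to 4 in HY_high against HY_low, -0.61, -0.00, 0.59 and -0.15 in HY_low against OT1, and -0.42, 0.29, 0.11 and -0.05 in HY_high against OT1.

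**Figure D1:**
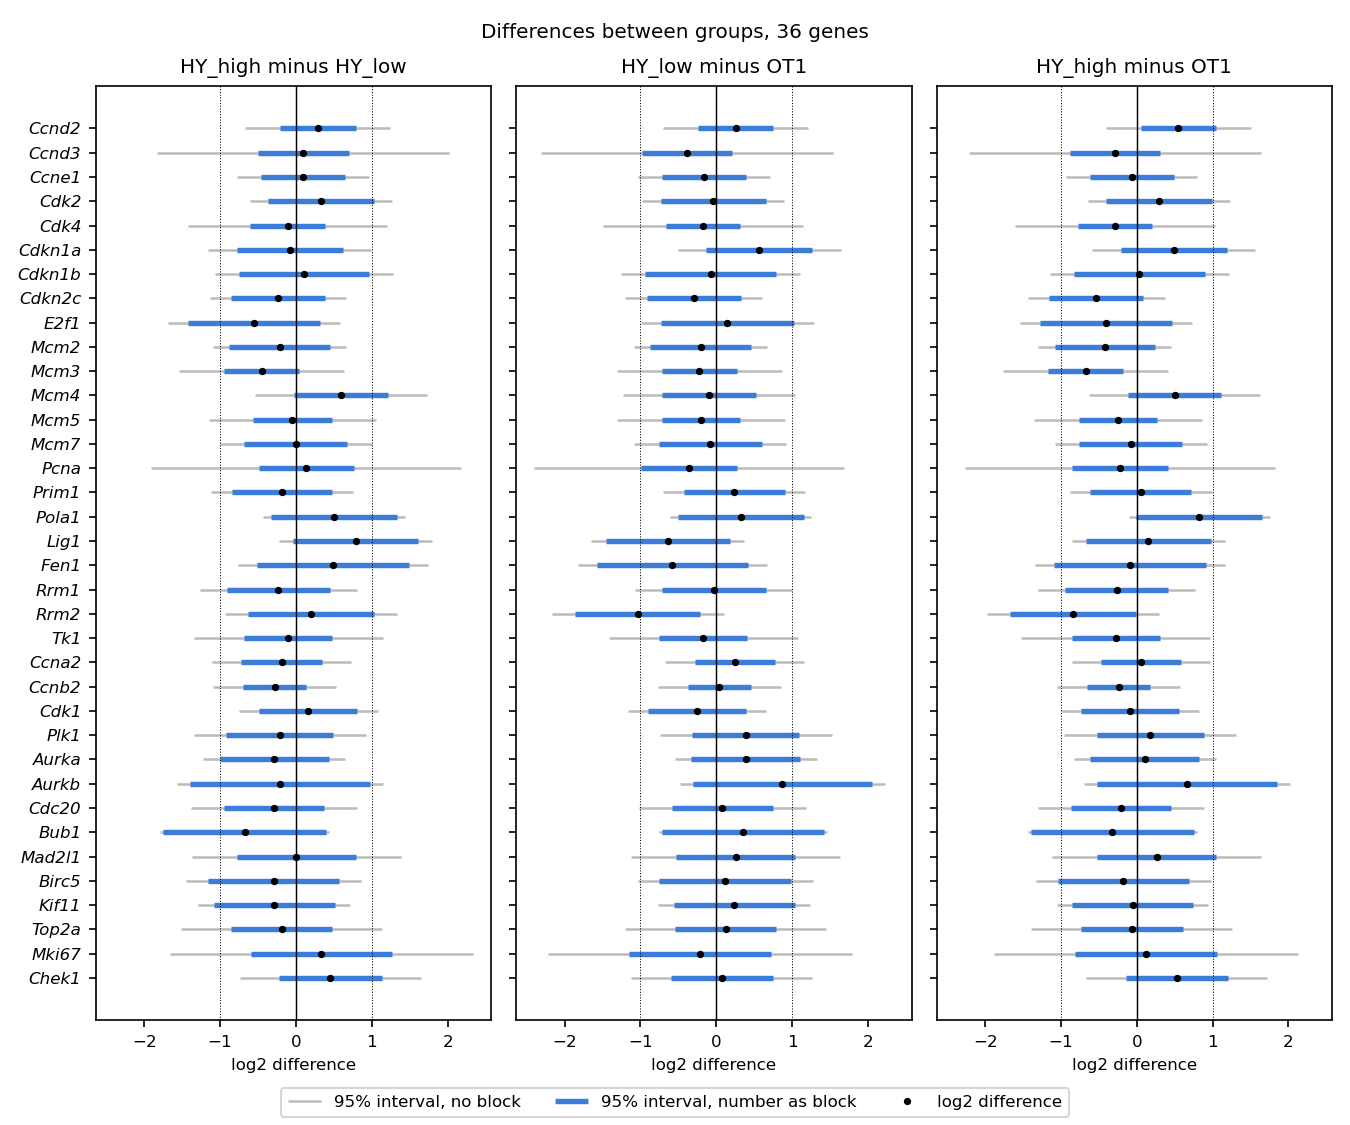
Log2 differences of the 36 tested genes (x axis) for HY_high minus HY_low, HY_low minus OT1 and HY_high minus OT1, each estimate a black point, with 95% intervals from limma without the number block (grey) and with it (blue), and dotted lines at a 2-fold difference. The grey intervals all cross 0, and with the block those of Rrm2 in HY_low minus OT1 and of Ccnd2, Mcm3 and Rrm2 in HY_high minus OT1 do not, although none of these passed adjustment.

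Among the 9 G1 genes the median log2 difference was 0.09 in HY_high against HY_low, -0.07 in HY_low against OT1 and -0.07 in HY_high against OT1. Ccnd2, the D cyclin induced by growth signals, read 76.2, 111.9, 284.2 and 199.5 on OT1 arrays 1 to 4. It read 177.5, 109.1, 283.1 and 179.1 on the HY_low arrays and 184.4, 178.0, 286.5 and 233.8 on the HY_high arrays. HY_high had the higher value within each number against both other groups, although the groups overlapped. Its log2 difference from OT1 was 0.55 ± 0.45 (SE, 4 arrays a group), with an adjusted p of 1.0 in limma, and 0.360 with the block. Array 1 gave most of this, since the differences within numbers 1 to 4 were 1.27, 0.67, 0.01 and 0.23.

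Cdkn2c, an inhibitor of Cdk4, read 32.6, 21.0, 11.8 and 16.6 in OT1, 14.8, 22.1, 14.4 and 12.4 in HY_low, and 14.2, 19.1, 10.96 and 10.3 in HY_high. HY_high had the lowest value within every number. The difference from OT1 was -0.54 ± 0.43 (adjusted p = 1.0 in limma). The other G1 inhibitors were Cdkn1a, the p53 target p21, with group geometric means of 8.74, 13.0 and 12.2 in OT1, HY_low and HY_high, and Cdkn1b, or p27, with 2.68, 2.54 and 2.74. Cdk4, with 140.1, 124.0 and 114.9, and Ccnd3, with 169.0, 129.4 and 138.4, were measured on every array, as was Ccne1, the cyclin of Cdk2, with 24.8, 22.2 and 23.7. E2f1, a founding member of the E2F family, was above 8 on 1 array, with means of 4.88, 5.40 and 3.67, and Cdk2 had means of 9.51, 9.25 and 11.6. A second E2f1 probe set, with a mean of 3.82, did not follow the first (r = -0.15). It differed by 0.45 in HY_high against HY_low, where the first gave -0.56, and by 1.04 in HY_high against OT1, where the first was lower.

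The 5 tested helicase subunits were all lower in HY_low than in OT1 on average, by log2 differences from -0.22 to -0.08. None of these passed limma. The direction was not shared by the numbers, since the median of the 5 within numbers 1 to 4 was -0.92, 0.13, 0.12 and -0.19. Mcm3 read 47.1, 66.7, 44.1 and 112.7 in OT1, 37.9, 65.3, 32.1 and 105.9 in HY_low, and 19.4, 64.2, 28.9 and 66.8 in HY_high. Within each of the 4 numbers OT1 was highest, HY_low next and HY_high lowest, while the groups overlapped throughout. The difference of HY_high from OT1 was -0.67 ± 0.52, with an adjusted p of 1.0 in limma. With the number as a block its SE was 0.23, its 95% interval ran from -1.17 to -0.18 and its adjusted p was 0.220. A second Mcm3 probe set followed the first over the 12 arrays with a Pearson r of 0.85 and differed by -0.30 in HY_high against OT1 but by 0.22 in HY_low against OT1, where the first gave -0.22. The downward order through HY_low was therefore not shared by both probe sets.

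Mcm4 was the subunit whose group means did not follow the order of Mcm3. It was higher in HY_high than in HY_low within every number, with geometric means of 28.2 and 18.7 and a log2 difference of 0.59 ± 0.54 (adjusted p = 1.0 in limma, 0.470 with the block). Mcm2, Mcm5 and Mcm7 had means of 31.6, 51.0 and 30.5 in OT1, 27.4, 44.3 and 28.9 in HY_low, and 23.6, 43.0 and 28.8 in HY_high. Mcm3 and Mcm5 both hold E2F words, and their brightest probe sets differed over the array numbers. Mcm5 was highest on array 1 in every group, and Mcm3 was highest on array 4 in every group. A second, dim Mcm5 probe set did not follow the first (r = -0.36). It had means of 1.78, 3.80, 2.82 and 3.35 on the arrays numbered 1 to 4, so it was lowest on number 1.

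**Figure D2:**
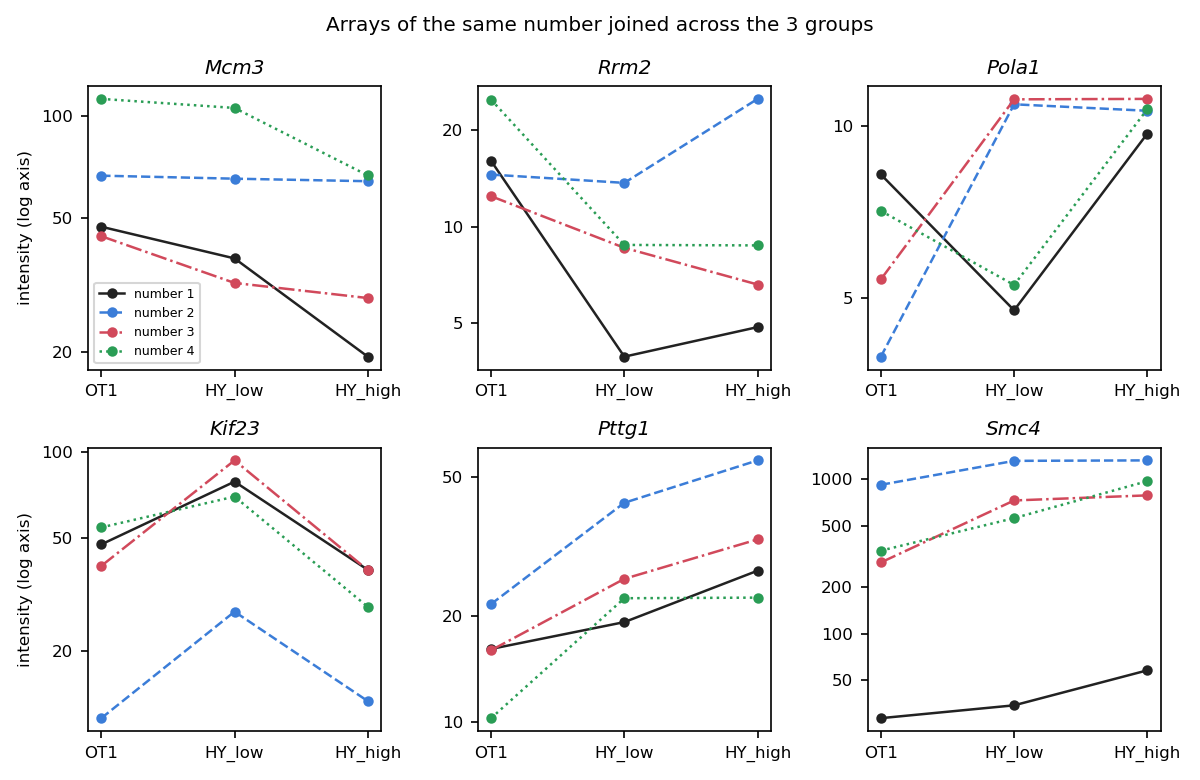
Intensity on a log axis in OT1, HY_low and HY_high (x axis) for Mcm3, Rrm2, Pola1, Kif23, Pttg1 and Smc4, 1 point an array, with a line joining the arrays of the same number. Mcm3 is lower in HY_high than in OT1 in all 4 numbers, Rrm2 is lower in HY_low than in OT1 in all 4, and Smc4 is higher in HY_high than in OT1 in all 4, at levels that start from 28.5 on OT1 array 1 and 920.3 on OT1 array 2.

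Of the 5 replication fork genes, Pola1 stood out by its small spread in HY_high. Pola1, the catalytic subunit of DNA polymerase alpha, read 8.22, 3.95, 5.39 and 7.10 in OT1, 4.76, 10.9, 11.1 and 5.27 in HY_low, and 9.69, 10.6, 11.1 and 10.7 in HY_high. Every HY_high array lay above every OT1 array, which held for 1 of the 36 genes and, in either direction, for 2.53% of all probe sets. In HY_high against HY_low and in HY_low against OT1 the groups of 0 of the 36 genes stood apart, against 2.02% and 1.63% of all. The log2 difference of Pola1 between HY_high and OT1 was 0.83 ± 0.44, a 1.77-fold difference, with an unadjusted p of 0.0790 and an adjusted p of 1.0 in limma. It was 0.39 with intensities under 8 set to 8 and 0.26 with 16 added before log2.

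Pcna, the sliding clamp of the polymerases, read 52.4, 407.1, 163.9 and 248.3 in OT1, 14.2, 287.2, 241.8 and 329.4 in HY_low, and 24.7, 386.6, 173.2 and 288.0 in HY_high. The arrays numbered 1 were low in all 3 groups, and the groups overlapped. The largest group difference was -0.36 ± 0.97 for HY_low against OT1, and it was 0.16 with all 3 arrays numbered 1 left out. Lig1, the ligase that joins the fragments of the lagging strand, had means of 17.8, 11.4 and 19.7 in OT1, HY_low and HY_high, and its difference of 0.79 between HY_high and HY_low was the highest of the 36 genes, with an unadjusted p of 0.117 in limma. Prim1, the primase, had means of 9.95, 11.7 and 10.3, and Fen1, the flap nuclease, 4.08, 2.73 and 3.83.

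The 3 genes of nucleotide supply had lower means in both HY groups than in OT1, with 0 of 3 passing limma. Rrm2, the regulated subunit of ribonucleotide reductase, read 16.04, 14.5, 12.5 and 24.9 in OT1, 3.94, 13.7, 8.60 and 8.78 in HY_low, and 4.87, 25.0, 6.61 and 8.75 in HY_high. HY_low was below OT1 within all 4 numbers and HY_high within 3 of them, array 2 being the exception. HY_low differed from OT1 by -1.04 ± 0.54, with an unadjusted p of 0.0706 and an adjusted p of 1.0 in limma, and an adjusted p of 0.448 with the block. It was -0.41 with 16 added before log2. Rrm1, the large subunit, read 91.8, 21.7, 15.6 and 42.2 in OT1, 33.3, 34.0, 29.5 and 35.95 in HY_low, and 39.9, 27.5, 21.1 and 27.3 in HY_high. A single high OT1 array set the OT1 mean of Rrm1, since the difference of HY_high from OT1 was -0.26 ± 0.49 with OT1 array 1 and 0.22 without it. Tk1, the thymidine kinase of S phase, had means of 33.9, 30.1 and 28.0.

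The 6 mitotic cyclin and kinase genes had a median difference of 0.32 in HY_low against OT1, where 5 of 6 were higher. In HY_high against HY_low it was -0.21, where 1 of 6 was higher, and 0 of 6 passed limma in either. The arrays numbered 3 carried both medians. Within numbers 1 to 4 the median was -0.08, 0.08, 0.93 and -0.09 in HY_low against OT1, and -0.16, 0.0045, -0.68 and 0.07 in HY_high against HY_low. Ccnb2, a B cyclin, read 112.1, 124.0, 82.4 and 137.4 in OT1, 102.7, 131.4, 94.5 and 138.1 in HY_low, and 70.9, 121.6, 67.9 and 138.6 in HY_high. HY_high lay below on arrays 1 and 3, and the groups otherwise coincided (difference from HY_low -0.28 ± 0.38, adjusted p = 1.0 in limma). Aurkb, the kinase of the chromosomal passenger complex, read 29.2, 2.74, 13.9 and 30.9 in OT1, 13.6, 38.4, 28.1 and 26.4 in HY_low, and 14.3, 29.6, 17.5 and 29.2 in HY_high. OT1 array 2 alone was far down, and the difference of HY_low from OT1, 0.87 ± 0.64, became -0.11 with the arrays numbered 2 left out.

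None of the other mitotic genes passed limma. Cdk1 had means of 47.0, 39.4 and 44.2 in OT1, HY_low and HY_high, and Ccna2, the cyclin of S and G2 phase, had 33.8, 39.9 and 35.0. Plk1, the kinase of mitotic entry, had 29.7, 38.9 and 33.7, and Aurka, the kinase of the centrosome, 6.24, 8.17 and 6.71. A second Plk1 probe set, with a mean of 27.6, hardly followed the first over the 12 arrays (r = 0.08) and was highest on the arrays numbered 1.

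Among the 8 spindle, checkpoint and chromosome genes the median differences were -0.24, 0.12 and -0.06 in HY_high against HY_low, HY_low against OT1 and HY_high against OT1. Within numbers 1 to 4 the medians were 0.13, 0.58, -0.81 and 0.12 in HY_high against HY_low. In HY_low against OT1 they were -0.30, -0.40, 1.37 and 0.03, and in HY_high against OT1 -0.38, 0.18, 0.38 and 0.16. Cdc20, the activator of the anaphase-promoting complex, read 198.2, 57.8, 29.8 and 72.7 in OT1, 100.4, 74.7, 80.4 and 51.6 in HY_low, and 89.4, 83.0, 34.5 and 54.6 in HY_high. The difference between HY_high and HY_low was -0.29 ± 0.52 (adjusted p = 1.0 in limma), and array 3 carried it, since it was 0.02 with the arrays numbered 3 left out. Bub1, a kinase of the spindle checkpoint, read 4.5, 5.85, 1.79 and 3.77 in OT1, 3.17, 4.70, 5.94 and 5.32 in HY_low, and 3.42, 1.18, 3.38 and 5.30 in HY_high. All of these values lay under 8, and HY_high array 2 was the lowest (difference from HY_low -0.68 ± 0.53, adjusted p = 1.0 in limma).

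The widely used markers of dividing cells differed between the groups by less than the spread of their arrays. Geometric means of Mki67 were 28.0, 24.1 and 30.4 in OT1, HY_low and HY_high, and Top2a had 31.7, 34.5 and 30.3. Their SDs on the log2 scale were 2.14, 1.83 and 1.003 for Mki67 and 0.78, 1.30 and 0.95 for Top2a (4 arrays each). Birc5, or survivin, had means of 7.19, 7.78 and 6.35, Kif11, the motor that separates the spindle poles, 13.1, 15.5 and 12.7, and Mad2l1, of the spindle checkpoint, 29.1, 34.8 and 34.9. Chek1, the checkpoint kinase that answers stalled forks, was higher in HY_high than in OT1 within all 4 numbers, with means of 23.5 and 16.3 and a difference of 0.53 ± 0.56 (adjusted p = 1.0 in limma). A same direction within all 4 numbers was found for 6, 2 and 6 of the 36 genes in HY_high against HY_low, HY_low against OT1 and HY_high against OT1, against 19.6%, 17.1% and 19.1% of all tested probe sets.

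A wider list of 137 other cell cycle genes gave the same picture in the fit without the block. Of these 109 had a single-symbol probe set and 101 were tested, and 0 of 101 passed the adjusted threshold of limma in any comparison, with 2, 0 and 3 at an unadjusted p under 0.05, where the shares of all probe sets were 2.96%, 2.65% and 4.08%. The median differences were 0.03, -0.00 and 0.01, and 53, 50 and 51 of the 101 were higher, against 51.3%, 51.0% and 51.4% of all tested probe sets. With the number as a block 1 was called lower in HY_high than in HY_low, 0 were called in HY_low against OT1 and 2 were called higher in HY_high than in OT1, where 0.345%, 0.092% and 1.36% of all probe sets were called.

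The gene called lower was Kif23, a motor needed for cytokinesis. It read 38.6, 13.3, 38.5 and 28.6 in HY_high, 78.7, 27.5, 93.5 and 69.8 in HY_low, and 47.4, 11.6, 39.8 and 54.4 in OT1. HY_low had the highest value within every number, and array 2 was low in every group. HY_high differed from HY_low by -1.16 ± 0.55, with an adjusted p of 1.0 in limma and of 0.0469 with the block.

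Pttg1, or securin, which holds sister chromatids together until anaphase, was one of the genes called higher. It read 16.1, 21.7, 16 and 10.2 in OT1, 19.3, 42.3, 25.6 and 22.5 in HY_low, and 27.0, 55.9, 33.2 and 22.6 in HY_high. Every HY_high array lay above every OT1 array, and HY_low lay between them within each number. HY_high differed from OT1 by 1.08 ± 0.43, with an adjusted p of 0.993 in limma and of 0.0398 with the block, and a second probe set gave 0.91.

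Smc4, a condensin subunit that compacts chromosomes, was the other. It read 28.5, 920.3, 289.7 and 345.2 in OT1, 34.5, 1314, 728.8 and 560.1 in HY_low, and 58.2, 1323, 786.1 and 971.6 in HY_high. Arrays numbered 1 were low in every group, and HY_high was above OT1 within each number. The difference was 1.12 ± 1.17, with an adjusted p of 1.0 in limma and of 0.0103 with the block. Without OT1 array 1 it was 0.125 and without HY_high array 1 it was 2.15, while leaving out all 3 arrays of a number gave 0.997 to 1.32.

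The other genes of the wider list named for their small p-values did not pass adjustment, with or without the block. Rbl2, a relative of the retinoblastoma protein, had means of 6.51 in HY_high and 2.24 in OT1 (difference 1.54 ± 0.60, adjusted p = 0.942 in limma). E2f3 had means of 1.45 in HY_high, 3.10 in HY_low and 2.72 in OT1, near the lowest value of the table. Cdc25a, the phosphatase that activates Cdk2, had 16.7 in HY_high and 7.88 in HY_low (difference 1.09 ± 0.48), Foxm1, a factor of mitotic genes, 4.44 in HY_low and 10.0 in OT1 (-1.18 ± 0.69), and Lmnb1, a nuclear lamin, 7.01 in HY_low and 4.17 in OT1 (0.75 ± 0.44).

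Some markers of other cell states moved with HY_high. The summed intensity of the double-positive thymocyte list ran from 117.6 to 256.9 on the HY_high arrays, from 308.5 to 1830 on the HY_low arrays and from 520.3 to 1519 on the OT1 arrays, over 8 markers. Cd8a and Cd8b1 made up most of that sum, and Cd8b1 was at 1.0 to 8.26 in HY_high and at 172.3 to 1374 elsewhere, while Cd4, at 3.88 to 6.94 in HY_high, overlapped the other groups. The summed NK cell list, 6 measured of 8, ran from 116.6 to 337.0 in HY_high, from 20.9 to 122.8 in HY_low and from 58.3 to 216.6 in OT1, with Klrd1 and Fcer1g highest in HY_high within every number and Ncr1, Klrk1, Gzma and Prf1 under 8 on every array. The part of these in the differences of Kif23, Pttg1, Smc4 and the 36 genes was not tested.

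The cell cycle genes varied far more by array number than by group. The sum of squares of each gene's log2 values over the 12 arrays was split into a share between the 4 numbers (3 degrees of freedom), a share between the 3 groups (2 degrees of freedom) and the rest. Over the 36 genes the median share was 65.6% between numbers and 5.28% between groups, against 52.8% and 10.7% over all tested probe sets and 68.7% and 8.83% over the 3971 with a mean above 8. The share between numbers was over 50% for 28 of the 36 genes (77.8%), against 53.3% of all and 73.6% of those above 8. It exceeded the share between groups for 31 of the 36, against 7301 of all 8695 tested probe sets and 3611 of the 3971 above 8. The exceptions among the 36 were Pola1 (41.2% between groups), Lig1 (28.3%), Bub1 (16.5%), Mcm2 (15.8%) and Aurkb (14.2%).

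**Figure D3:**
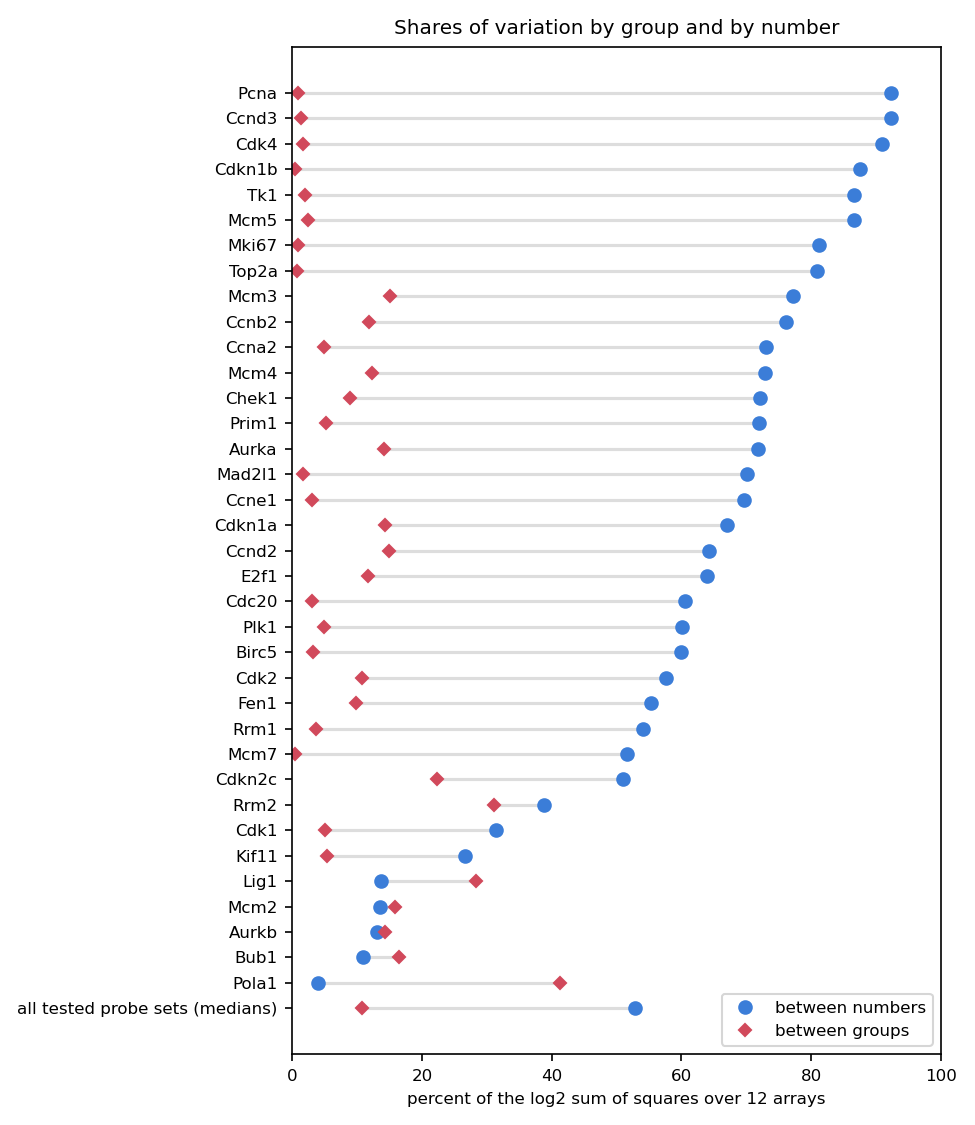
Share of the log2 sum of squares over 12 arrays (x axis, percent) between the 4 array numbers (blue circles) and between the 3 groups (red diamonds) for each of the 36 tested genes, with the medians of all tested probe sets at the bottom. Pcna, Ccnd3 and Cdk4 lie above 90% between numbers, and Pola1 is the gene with the highest share between groups.

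For some of the 36 genes the arrays numbered 1 of all 3 groups lay together on one side of the others. They were not alike for every gene. Rrm1 read 91.8, 33.3 and 39.9 on the OT1, HY_low and HY_high arrays numbered 1, and Rrm2 16.04, 3.94 and 4.87. All 3 arrays numbered 1 lay below the 9 other arrays for 2 of the 36 genes (5.56%, against 9.13% of all probe sets) and above them for 7 (19.4%, against 6.47% of all). The low ones were Pcna, 10.2-fold below the other arrays, and Mki67, 8.19-fold below, with 3.13, 5.23 and 11.1 on OT1, HY_low and HY_high array 1 and 14.0 to 77.3 elsewhere. The high ones were Ccnd3, 7.99-fold above the other arrays, Cdk4 (3.10-fold), Tk1 (2.94-fold), Mcm5 (2.42-fold), Cdc20 (2.14-fold), Cdkn1a (2.12-fold) and Ccne1 (1.66-fold). Ccnd3 read 864.9, 499.3 and 752.5 on the OT1, HY_low and HY_high arrays numbered 1 and 38.0 to 238.0 on the others. By their brightest probe sets, genes of S phase were on both sides, since Mcm5 and Tk1 were high where Pcna was low.

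The arrays numbered 2 were the high end for another set. Top2a read 67.0, 76.8 and 65.9 on the OT1, HY_low and HY_high arrays numbered 2 and 10.1 to 58.3 on the others. Plk1 read 75.5, 48.4 and 76.8 there and 16.4 to 53.9 on the others, where HY_low array 3 lay above HY_low array 2, and Mcm4 42.7, 43.9 and 54.1 against 11.8 to 28.2 elsewhere. Cdk4, with 63.0, 40.1 and 73.6, was lowest there.

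**Figure D4:**
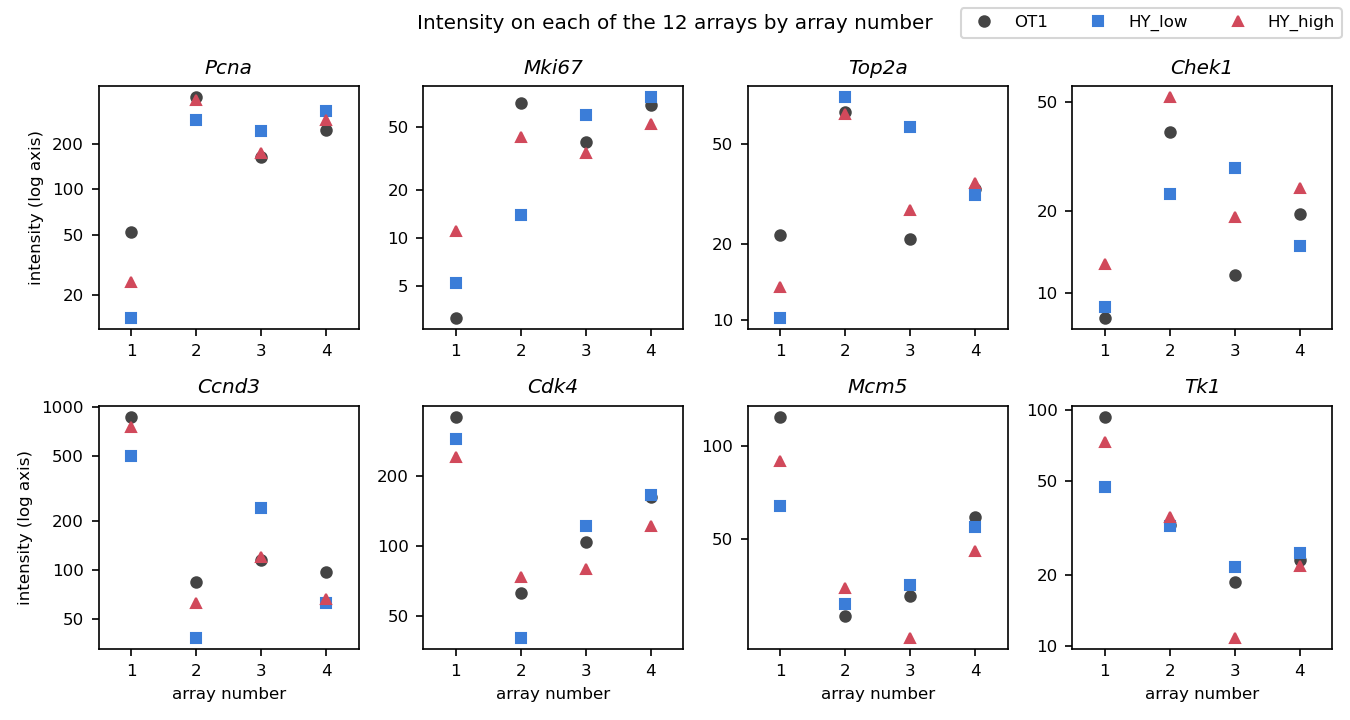
Intensity on a log axis against array number (x axis) for Pcna, Mki67, Top2a, Chek1, Ccnd3, Cdk4, Mcm5 and Tk1, 1 point an array, with OT1 as circles, HY_low as squares and HY_high as triangles. Points of the 3 groups cluster within a number, and array 1 is low for Pcna and Mki67 and high for Ccnd3, Cdk4, Mcm5 and Tk1.

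Some other measures of the arrays moved with the number as well. The log2 ratio of 3′ to 5′ Gapdh control probe sets was 4.57 to 4.87 on the arrays numbered 1, 5.60 to 6.26 on those numbered 2, 4.69 to 5.48 on those numbered 3 and 2.95 to 3.27 on those numbered 4. For actin it was 2.59 to 3.60, 2.02 to 2.99, 2.74 to 3.39 and 2.15 to 2.54 in the same order, ranges that partly overlapped. The share of values at the lowest intensity was 8.48% to 8.78% on the arrays numbered 1 and 20.8% to 22.5% on those numbered 3 and 4, and among those numbered 2 the OT1 array had 19.0%, the HY_low array 5.17% and the HY_high array 3.0%. The summed B cell markers, 6 of the 7 listed, ran from 525.2 to 1007 on the arrays numbered 1 and from 79.0 to 344.3 on the others, with Cd79a and Blnk under 8 on every array. Ighm made up most of that sum, with 461.2 to 987.2 on the arrays numbered 1, and Ms4a1, at 2.04 to 5.69 there and 3.31 to 9.77 elsewhere, did not share the contrast. By group that sum ran from 89.9 to 1007 in OT1, 79.0 to 632.7 in HY_low and 159.2 to 525.2 in HY_high. The part of these in the levels of the cell cycle genes was not tested.

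**Figure D5:**
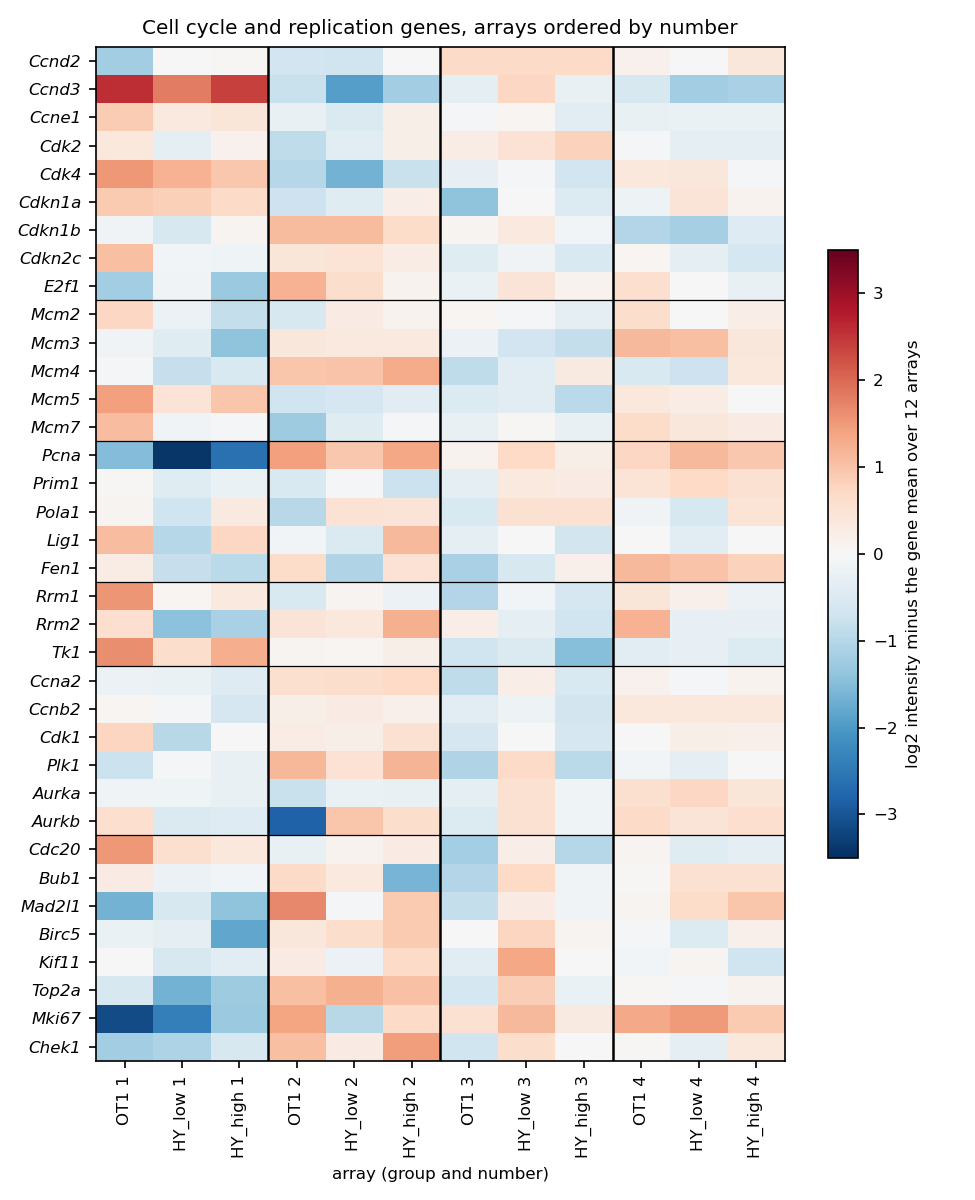
Log2 intensity minus the gene's mean over the 12 arrays (colour, red high and blue low) for the 36 tested genes (rows, grouped by role) and the 12 arrays (columns, ordered by number and then by group). Columns of the same number resemble each other. The deepest blue cells are Pcna on HY_low and HY_high array 1, Mki67 on OT1 and HY_low array 1, and Aurkb on OT1 array 2.

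By their brightest probe sets, the genes did not vary over the arrays as a single module. Over the 12 arrays, which share numbers and are not independent, the 630 pairs among the 36 genes had a median Pearson r of 0.13, with 124 pairs above 0.5 and 52 below -0.5. The closest pairs were Ccna2 with Plk1 (r = 0.90), Mcm3 with Ccnb2 (0.90) and Cdk4 with Mcm5 (0.89), and Pcna went with Top2a (0.87). These pairs depend on the probe set used, since a second Plk1 probe set hardly followed the brightest (r = 0.08). Opposite courses were found for Ccnd2 with Cdkn2c (r = -0.89), for Ccnd3 with Pcna (-0.87) and for Cdk4 with Top2a (-0.79).

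The median of the 36 centred log2 values on each array gives their common level. It was 0.17, 0.23, -0.39 and 0.09 on OT1 arrays 1 to 4, -0.28, 0.16, 0.26 and -0.00 on the HY_low arrays, and -0.25, 0.30, -0.25 and 0.15 on the HY_high arrays. The groups overlapped, and the arrays numbered 2 were above 0 in each. Ccna2 followed this median most closely (r = 0.88), with Cdk1 and Top2a at 0.80. Outside the 40 genes the tested genes most like it over the 12 arrays were Sh2d1b1 (r = 0.86), Cdca3 (0.85), Dlat (0.84), Akirin2 (0.82) and Stmn1 (0.81).

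Second probe sets were a check on single genes. There were 15 further single-symbol probe sets for 13 of the 37 genes, 10 of them above the filter. Only those of Mcm3 (r = 0.85) and Cdk4 (r = 0.68) followed the brightest probe set with an r above 0.5 over the 12 arrays, and 5 of the 15 had an r below 0. The second Cdk4 probe set had means of 11.7, 5.63, 6.96 and 11.2 on the arrays numbered 1 to 4, where the brightest had 294.5, 57.1, 100.6 and 148.8, so that only the brightest was highest on number 1 by a wide margin.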

How the data were processed

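Intensities on a linear scale, deposited by the authors as a single table of 12488 probe sets, were used as they stood; background correction, summarisation and scaling are not given in the sources used here. After 66 control probe sets were left out, log2 was taken, and the 8695 probe sets whose mean lay above the 30th percentile (an intensity of 1.76) were tested. Symbols came from the platform annotation. All 12 arrays entered a single limma model (version 3.58.1 in R 4.3.3) of group means, with a variance trend on intensity, 9 residual degrees of freedom, two-sided tests and Benjamini-Hochberg adjustment over all tested probe sets. Levels are geometric means; differences are log2 with standard errors. The script was tested on simulated data.

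The title numbers 1 to 4 recur in each group. Deviations from the group means correlated by 0.341 to 0.593 for the 12 pairs of arrays with the same number and by -0.40 to 0.163 for the 36 other pairs, so the numbers pair the arrays by this check, on which the labels are silent. The model that blocks on number had 6 residual degrees of freedom.

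Values on every array are given for genes past a threshold and, in each role, for the brightest gene and the one with the smallest p; other genes by means. From the wider list, genes called with the block and the smallest p-values are named. Pcna, Ccnd3, Mki67, Top2a, Plk1, Mcm4 and Cdk4 by number were chosen after their values were seen. The 40 genes and all lists were chosen with earlier results of these data known. Alternatives covered the block, normalization, scaling, filter, floor, pseudocount, weights, variance prior, probe sets and left-out arrays. Figures used Python 3.11.15 and matplotlib 3.10.9.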

Additional observations from a re-analysis of the deposited data

Results flagged for a closer look

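In 4 of the 111 sets of 4 arrays (37 genes in 3 groups) 1 array stood far from the other 3, where chance gives about 1 in 20. Ccnd3 read 864.94 on OT1 array 1 and 84.2 to 115.2 on the other OT1 arrays. Pcna read 14.15 on HY_low array 1 and 241.8 to 329.4 on the others, and Cdk1 read 22.04 on the same array and 43.9 to 50.1 on the others. Cdk2 read 14.35 on HY_low array 3 and 7.86 to 8.12 on the others. The arrays numbered 1 hold 3 of the 4, and for Ccnd3 and Pcna the arrays numbered 1 of the other groups lay on the same side.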

How the results depend on the processing

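None of the 36 genes passed the adjusted threshold of limma in any comparison under any of the 25 alternatives, 16 of which leave out arrays. The replicate block turned 3 genes of the wider list into calls, Kif23 (-1.16), Pttg1 (1.08) and Smc4 (1.12), and changed no other call of a named gene. Counts of the 36 genes that were higher moved most with left-out arrays: 10 to 25 in HY_high against HY_low (25 without the arrays numbered 3), 6 to 24 in HY_low against OT1 (6 without number 3) and 11 to 23 in HY_high against OT1 (23 without number 1). With the mean over all probe sets of a gene, the Mcm3 difference between HY_low and OT1 became 0.000319 and the Plk1 difference between HY_high and OT1 -0.041. With arrays left out, differences ran from -0.22 to 0.63 for Plk1 and from -0.64 to 0.22 for Rrm1 in HY_high against OT1, from -0.93 to 0.73 for Pcna, from -0.55 to 0.058 for Mcm3 and from -0.11 to 1.53 for Aurkb in HY_low against OT1, and from -0.47 to 0.023 for Cdc20 in HY_high against HY_low. With 16 added before log2, the Pttg1 difference between HY_high and OT1 was 0.63. The cause of these moves was not tested. Bub1 and E2f3 have no value with intensities under 8 set to 8, nor Bub1 with the mean over probe sets. The signal limits Cdkn1b, Fen1, Bub1 and E2f1, which lay near the low end of the arrays.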
